A study of Arabidopsis thaliana with 16 samples.

Results

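Whole rosettes of the Arabidopsis thaliana autophagy mutant atg9 were compared at 60 and 30 days after sowing on low nitrate. The comparison used the 4 atg9 arrays of a series of 16, picked by genotype, nitrate supply and age, with 2 arrays per age and 1 array per age from each of 2 cultures. The mutant is a single T-DNA line, SALK_130796. Its plants were grown with 2 mM nitrate in short days, 8 h of light at 160 µmol per square metre per second and 16 h of dark, and each array holds RNA pooled from more than 6 rosettes. The cultures were grown several months apart, so the array of one culture at 60 days was paired with the array of the same culture at 30 days. The reference groups were wild type Col-0 and the mutant atg5-3 (SALK_02060), each with 4 arrays of the same ages, nitrate supply and cultures. The remaining 4 arrays, Col-0 and atg5 on 10 mM nitrate, entered the filter on mean signal, the culture term and the estimate of the spread. They were not part of any age comparison.

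Autophagy wraps portions of cytoplasm in a double membrane, the autophagosome, and delivers them to the vacuole for breakdown. ATG9 is the membrane protein of the core machinery and is carried on vesicles that supply the growing autophagosome, whereas ATG5 acts with ATG12 and ATG16 to attach the ubiquitin-like ATG8 to the membrane. In leaves the pathway returns amino acids from old cell contents, chloroplast proteins among them, and autophagy mutants are known for early yellowing and a poor export of nitrogen when nitrate is scarce.

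Expression was measured on Affymetrix arrays as MAS5 signals, a linear brightness per probe set scaled to the same trimmed mean (500.04 to 500.05) on every array. Of 22746 probe sets that are not controls, 13648 passed the filter on dim signals, and 7311 of these carried the name of 1 gene. The 2 arrays of a group correlated at r = 0.97 for atg9 at each age, across probe sets on the log2 scale. The lower quartile of the signal lay between 26.6 and 32.4 on the atg9 arrays, so values in that range are near the background. Among the reference groups 2 arrays stood apart, the Col-0 array of culture 1 at 30 days (lower quartile 89.3) and the atg5 array of culture 1 at 60 days (actin 3′ to 5′ ratio 9.05). The actin ratio, a sign of RNA quality, was 3.04 on the atg9 array of culture 1 at 60 days and 1.91 to 2.18 on the other 3 atg9 arrays. The leaf marker RCA, for Rubisco activase, had signals of 25071.7 and 23027.0 at 30 days and 17246.3 and 24091.7 at 60 days. It was the 1 of 12 leaf markers with a probe set named here. No probe set was named for ATG9 or ATG5, so the mutation itself was not checked.

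Between 30 and 60 days the atg9 rosettes gained signal of 12 of 17 tested autophagy genes and of 4 of 5 tested jasmonate and ethylene defence genes. The latter list has 38 members, and its 4 include the defensins PDF1.2 and PDF1.2b, which are not separate evidence. Among the genes that fell were EXO, of cell expansion, and XTH16, a wall enzyme, although the cell wall list was near the share of all probe sets. In the whole table limma called 1919 probe sets higher and 1220 lower at the older age, 3139 in all, or 23.0% of those tested (14.1% higher and 8.94% lower). Before adjustment 5101 had p under 0.05, and with no change at all 682 would have. Among the called probe sets the median change was 1.27 for the higher and -1.14 for the lower. All changes here are 60 minus 30 days on the scale log2(signal + 32), which understates the change of dim genes. More than 4-fold changes were counted for 389 higher and 113 lower probe sets, and more than 16-fold changes for 37 and 3. The split between higher and lower depended on the scaling. As deposited, 61.13% of the calls were higher, and after quantile normalization 48.29% were (1285 higher and 1376 lower). The median change of all tested probe sets, 0.12 as deposited, was -0.02 after quantile normalization.

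All 3139 called probe sets had the same sign in the 2 cultures, a property that the threshold nearly forces. Over all 13648 tested probe sets the changes of the cultures had the same sign in 74.02%, and they correlated at r = 0.68. This correlation is across genes, which are not independent replicates, and is given as a description. Levels in whole rosettes are relative to total RNA, so fewer cells of a type and less RNA per cell cannot be told apart.

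**Figure D1:**
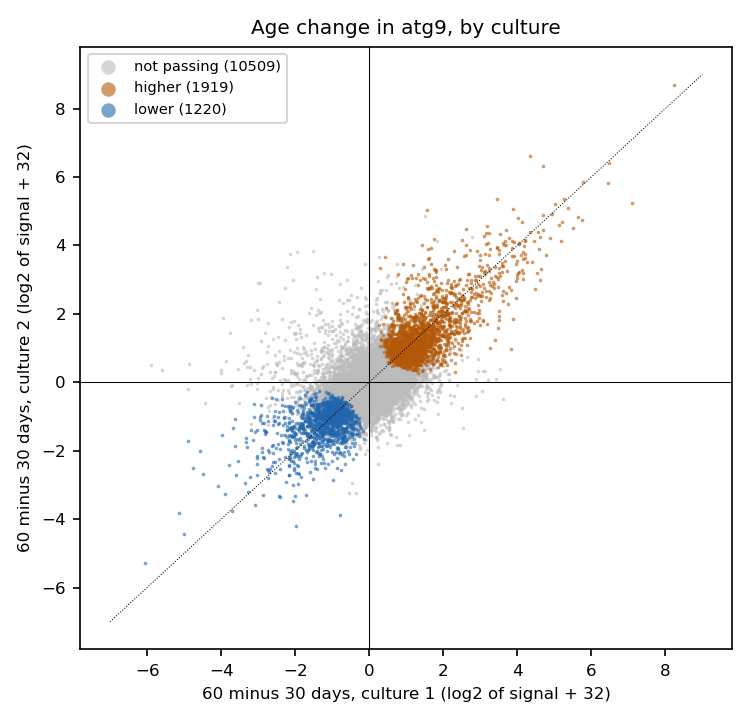
Change from 30 to 60 days in atg9 for 13648 probe sets, culture 1 on the x axis and culture 2 on the y axis, each as a difference of log2(signal + 32). Orange points were called higher (1919), blue points lower (1220) and grey points did not pass, and the called points lie in the quadrants where both cultures moved the same way.

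The 15 largest rises among named genes included plant defensins, a glucanase and an oxidase linked to pathogen defence. AT5G39520, which has no gene name in the annotation used, had signals of 56.2 and 26.0 at 30 days (cultures 1 and 2) and 4772.2 and 3289.7 at 60 days, a rise of 5.80 ± 0.70 (SE, n = 2 arrays an age, limma adjusted p = 0.000499). PDF1.2, an antimicrobial plant defensin induced by jasmonate and ethylene, read 345.7 and 115.9 at 30 days and 7578.0 and 14594.5 at 60 days, and rose by 5.48 ± 0.73 (adjusted p = 0.000836). Its close relative PDF1.2b rose by 5.51 ± 0.73, from 214.1 and 71.2 to 6286.6 and 8269.2. The 30-day and 60-day signals of these 3 genes lie far apart in both cultures. The probe set of PDF1.2b can also bind near-identical sequences, so these defensins cannot be counted as separate evidence.

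AT4G16260, of the family of beta-1,3-glucanases that cut fungal cell walls, read 37.4 and 21.6 at 30 days and 1772.7 and 1564.0 at 60 days. Its rise of 4.8 ± 0.40 had the smallest adjusted p of the named rises (0.00012). AT1G30700, an oxidase of the berberine bridge enzyme family, whose members oxidise cell wall sugars or defence compounds, was at 4.4 and 9.4 and then at 1232.3 and 962.1, a rise of 4.85 ± 0.64. AT1G62760 belongs to the inhibitors of pectin methylesterase, which tune the stiffness of the wall, and rose by 5.12 ± 0.58, from 63.0 and 23.0 to 3049.2 and 2005.4. The 30-day signals of AT1G30700, of AT3G61930 (2.3 and 1.1, then 1240.2 and 821.6) and of AT3G23550 were below the lower quartile of their arrays. The sizes of such rises are set by the 32 added, and 42 of the 1919 higher probe sets had both 30-day signals under that quartile.

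The other large rises were of several functions. HIS1-3, a linker histone known to respond to drought and abscisic acid, rose by 4.42 ± 0.48, from 44.0 and 61.1 to 1304.1 and 2379.5. AT1G80130, of a family with tetratricopeptide repeats, was at 510.7 and 879.5 and then at 13198.8 and 17089.4, a rise of 4.42 ± 0.39. AT3G23550, a membrane transporter of the MATE family, rose by 4.26 ± 0.38, from 24.2 and 26.6 to 1519.5 and 743.1. AT4G00700, of a family with C2 domains, read 49.0 and 34.3 and then 2361.6 and 1199.8, a rise of 4.55 ± 0.73. AT1G68620, of the carboxylesterase family, rose by 4.16 ± 0.49. The 15 largest rises closed with AT3G13950 (4.92 ± 0.53), AT3G18250 (4.24 ± 0.59) and AT1G13470 (4.09 ± 0.68). The ages did not overlap for any of the 15, which their selection by size and sign on these arrays nearly forces. All 15 passed under every alternative run for them.

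**Figure D2:**
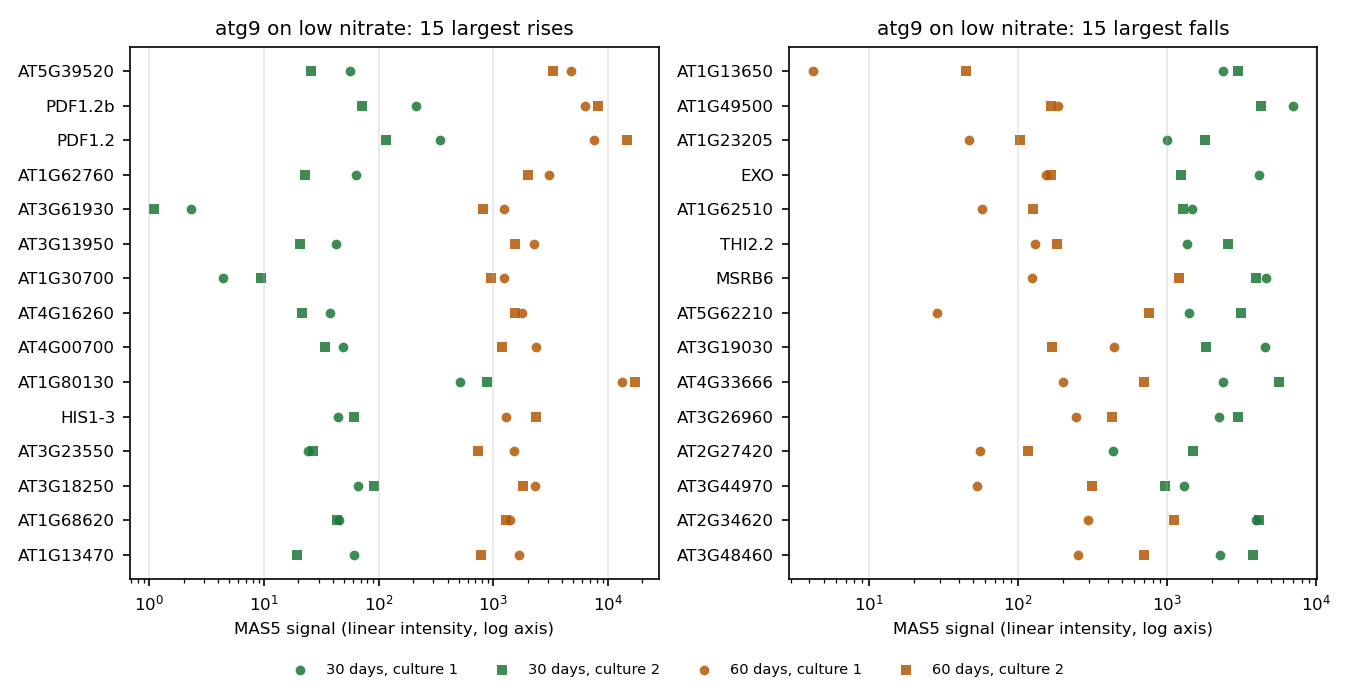
MAS5 signal on a log axis of the 15 named genes with the largest rise and the 15 with the largest fall in atg9 on low nitrate, 1 point per array. Green is 30 days and orange 60 days, and circles are culture 1 and squares culture 2. In all 30 genes the 2 ages do not overlap, which their selection nearly forces.

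The 15 largest falls are given here by gene. AT1G13650, without a gene name here, fell from 2373.7 and 2991.1 at 30 days to 4.2 and 44.9 at 60 days, a change of -5.68 ± 0.49 (limma adjusted p = 0.00012). AT1G49500, also unnamed, read 6998.6 and 4268.4 at 30 days and 185.6 and 167.3 at 60 days (-4.72 ± 0.59). EXO, for EXORDIUM, an extracellular protein of brassinosteroid-dependent cell expansion, fell from 4131.8 and 1246.2 to 154.3 and 165.7 (-3.59 ± 0.43). Each of the 3 genes was far lower on both 60-day arrays than on either 30-day array.

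AT1G23205, another pectin methylesterase inhibitor gene, changed in the opposite direction to AT1G62760, from 999.2 and 1806.1 to 47.1 and 103.9 (-3.73 ± 0.40). AT1G62510, of the lipid transfer protein family, changed by -3.56 ± 0.47, and THI2.2, a thionin, which is a small antimicrobial peptide, by -3.34 ± 0.39, from 1350.9 and 2554.2 to 130.4 and 182.0. AT3G48460, a lipase-like enzyme of the GDSL family, changed by -2.70 ± 0.40. AT2G27420, a papain-like cysteine protease, changed by -2.88 ± 0.67, from 432.1 and 1486.4 to 55.5 and 117.5.

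Not every fall was of the same size in both cultures. MSRB6, a methionine sulfoxide reductase that repairs oxidised protein, read 4580.9 and 3966.0 at 30 days and 124.4 and 1192.8 at 60 days (-3.29 ± 0.96, adjusted p = 0.0294). AT5G62210 was at 1409.7 and 3108.3 and then at 28.6 and 750.7 (-3.29 ± 1.08, adjusted p = 0.0466). For both genes the 60-day array of culture 1 was the lower of the old pair, as it was for AT2G34620 of the mTERF family of organelle gene regulators (292.7 against 1107.8). The calls of MSRB6, AT5G62210, AT2G34620, AT2G27420, AT4G33666 and the cytochrome P450 gene AT3G44970 were lost without that array, with adjusted p from 0.0538 to 0.364. Those of MSRB6, AT5G62210, AT2G27420 and AT4G33666 were also lost without the 30-day array of culture 2, and those of MSRB6 and AT5G62210 without that of culture 1. AT5G62210 passed in 7 of 15 alternatives and did not pass with nothing or 16 added, with no filter, without the block or after quantile normalization. AT4G33666 changed by -3.15 ± 0.65 and AT3G44970 by -2.75 ± 0.54 with all arrays, and AT3G19030 (-3.24 ± 0.50) and AT3G26960 (-2.88 ± 0.47) completed the 15.

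Genes of the autophagy machinery were higher in the old atg9 rosettes as a group. Of 17 tested autophagy genes 12 rose and none fell, beside 14.1% higher among all probe sets, and the median change was 1.1 against 0.12 overall. All 17 were above 0 in both cultures. The medians of the cultures were 1.18 each. The count of 12 was 9 after quantile normalization and 4 to 7 without 1 of the atg9 arrays, the lowest without culture 2 at 30 days or culture 1 at 60 days.

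The ATG8 proteins are the ubiquitin-like tags of the autophagosome membrane, and 8 of their 9 tested genes passed. ATG8H read 229.0 and 284.4 at 30 days and 1029.6 and 844.4 at 60 days, a rise of 1.75 ± 0.42 (limma adjusted p = 0.013). With quantile normalization its adjusted p was 0.0508. ATG8D rose by 1.58 ± 0.20, from 203.9 and 292.7 to 825.4 and 763.7, with the smallest adjusted p of the list (0.000703). ATG8B (1.58 ± 0.27), ATG8A, whose symbol here is APG8A (1.54 ± 0.25), and ATG8G (1.47 ± 0.25) rose by similar amounts. Smaller rises were those of ATG8F (0.93 ± 0.26), ATG8I, whose symbol here is APG8H (0.75 ± 0.21), and ATG8C (0.70 ± 0.19). ATG8E had a change of 1.1 ± 0.43 and did not pass (adjusted p = 0.0853). ATG8D, ATG8B, ATG8A and ATG8G passed in all 15 alternatives.

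Beyond ATG8, genes of the initiating kinase complex also moved. ATG1A (AT3G61960), a kinase that starts autophagy, rose by 1.18 ± 0.24, from 512.0 and 474.6 to 1204.1 and 1120.2. ATG101 (AT5G66930), a partner of that kinase, rose by 1.18 ± 0.29, from 349.1 and 329.2 to 723.2 and 904.3. ATG14A (AT1G77890), of the lipid kinase complex, rose by 1.4 ± 0.46, and ATG3, the enzyme that hands ATG8 to the membrane lipid, by 0.82 ± 0.25. The values of the members that did not pass were 1.05 for ATG1C (AT2G37840), 0.70 for ATG1B (AT3G53930), 0.45 for ATG4B (AT3G59950), the protease that processes ATG8, and 0.34 for ATG16 (AT5G50230). The annotation used gives the members written with a locus no gene name, and their names were assigned by locus.

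Vacuolar proteases break down protein in ageing leaves. Of 6 tested 3 rose and none fell, beside 14.1% higher among all probe sets, with a median of 1.36. GAMMA-VPE, a vacuolar processing enzyme that activates other hydrolases, read 4950.1 and 4067.4 at 30 days and 16538.4 and 24610.9 at 60 days (2.16 ± 0.40, adjusted p = 0.0038). AT4G01610, a cathepsin B-like protease, went from 1417.8 and 1143.9 to 5666.3 and 5928.4 (2.16 ± 0.31), and BETA-VPE from 411.0 and 304.5 to 1036.4 and 2763.8 (2.16 ± 0.57). The count was 1 without the 30-day array of culture 2, when GAMMA-VPE and BETA-VPE did not pass, and 2 without either 60-day array, when BETA-VPE did not. APA1, an aspartic protease of the vacuole, had a change of 0.56 ± 0.22 and did not pass (adjusted p = 0.0906), but it did after quantile normalization (adjusted p = 0.00271).

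Senescence and nitrogen genes were few on the named probe sets. Of 4 senescence genes 2 rose, beside 14.1% higher among all probe sets, with a median of 1.46. PPDK, a pyruvate dikinase that helps to make amino acids for export from old leaves, went from 1048.5 and 842.4 to 3631.2 and 4167.5 (2.01 ± 0.36, adjusted p = 0.00302). WRKY6, a transcription factor of senescence, went from 50.3 and 52.4 to 224.3 and 184.6 (1.5 ± 0.28). It was dim at 30 days and passed the filter on mean signal only through brighter arrays, its 60-day atg9 arrays among them. Its place in the count of 2 is thus not separate from its rise. WRKY53, another transcription factor of senescence, had a change of 1.42 ± 0.75 and did not pass. The sugar transporter SAG29 (SWEET15) had one of -0.63 ± 0.79 and did not pass either. NRT2.5, a high-affinity nitrate transporter of nitrogen-starved plants and the 1 tested gene of its list, rose by 3.59 ± 0.64, from 20.7 and 28.8 to 903.5 and 461.5. Its 30-day signals were near the background, and it passed the filter only through brighter arrays, its 60-day atg9 arrays among them. The size of its rise ran from 2.59 to 4.725 over the alternatives in which it was tested.

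Other defence genes were called in part, beside 14.1% higher and 8.94% lower among all probe sets. Of 5 tested jasmonate and ethylene genes 4 rose, counting PDF1.2 and PDF1.2b separately, and 1 fell. Besides the defensins and THI2.2 these were OSM34, an osmotin (3.86 ± 0.44, from 4.0 and 38.5 to 802.0 and 612.3), and EIN3, the transcription factor of ethylene signalling (1.33 ± 0.20, from 1154.8 and 1274.6 to 2952.3 and 3274.5). The rise of OSM34, whose 30-day signal in culture 1 was near the background, ran from 2.74 to 5.82 over the alternatives in which it was tested. Of 3 salicylic acid genes SAG101, an immune regulator, rose (1.34 ± 0.34), while GRX480 (1.77 ± 0.77) and AT5G52810 (0.87 ± 0.43) did not pass. Among 5 chitinases 3 rose: CHI (AT2G43570) by 3.90 ± 0.74, AT3G47540 by 1.29 ± 0.25 and AT4G01700 by 1.25 ± 0.40, but 1 passed without the 30-day array of culture 2 or the 60-day array of culture 1, and 2 without the 60-day array of culture 2 or after quantile normalization. Among 8 berberine bridge enzyme genes 3 rose, AT1G30700, AT1G26390 (3.85 ± 0.57) and AT1G26380 (3.61 ± 0.53), and the other 5 lay between -0.60 and 0.74. All 3 were near the background in atg9 at 30 days and passed the filter only through brighter arrays. With nothing added to the signals AT1G30700 and AT1G26380 were below the filter and were not tested. With a filter at the 60th percentile 3 genes of the list were tested and 0 rose. The chitinase and berberine bridge lists were added after values had been seen.

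**Figure D3:**
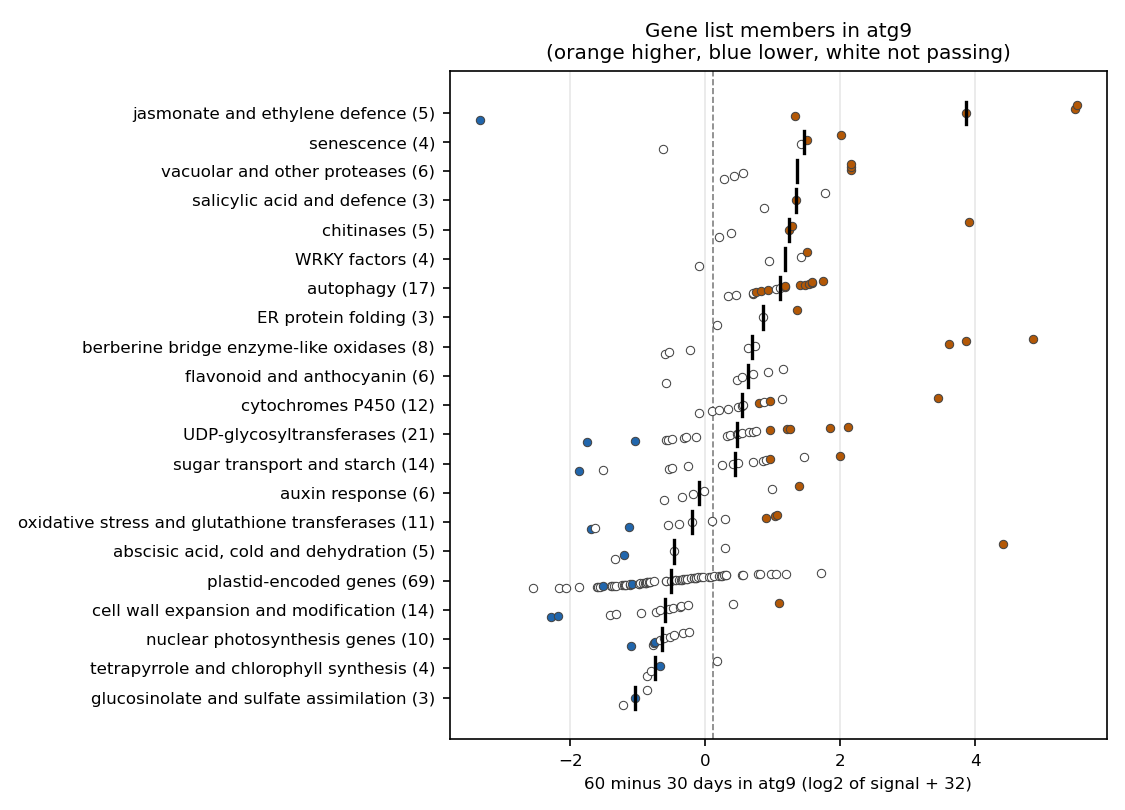
Change from 30 to 60 days in atg9, as a difference of log2(signal + 32), of each member of the 21 lists with at least 3 tested genes (number tested in parentheses). Orange members were called higher, blue lower and white did not pass, black bars are list medians and the dashed line is the median of all tested probe sets, and all 17 autophagy genes lie to the right of that line.

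Nuclear genes of photosynthesis code for most of the chloroplast's proteins. Of 10 tested 3 fell and none rose, beside 8.94% lower among all probe sets, and the median was -0.64. SBPASE, an enzyme of the Calvin cycle, went from 17429.6 and 14150.2 to 6803.5 and 7885.0 (-1.1 ± 0.26, adjusted p = 0.0111). PRK, phosphoribulokinase of the same cycle, changed by -0.76 ± 0.21 and PSBW, a small photosystem II subunit, by -0.74 ± 0.20. The other 7 lay between -0.78 (PSBY) and -0.24 (RCA) and did not pass. After quantile normalization 1 of the 10 passed and the median was -0.25, and without the atg9 array of culture 1 at either age none passed.

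Genes encoded in the plastid had another pattern, one of disagreement between cultures. Of 69 tested 2 fell and none rose, or 2.90% called beside 23.0% of all probe sets, with a median of -0.52. In culture 1 the median was -1.29 and 53 of 69 were below 0, and in culture 2 it was 0.10 and 27 were below 0, while the medians of all probe sets were 0.15 and 0.08. For atpB, a subunit of the ATP synthase, the 30-day signals were 27393.6 in culture 1 and 4241.4 in culture 2, and the 60-day signals 906.7 and 6195.2. For psbA, the D1 protein of photosystem II, they were 11582.1 and 842.8, then 357.5 and 731.7. The signals of both genes were highest on the 30-day array of culture 1. The ages overlap for atpB but not for psbA, and neither gene passed.

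The plastid genes that passed were 2 small photosystem II subunits, psbK (-1.51) and psbI (-1.09), and both lost the call in 7 alternatives, among them the fit with no culture block, quantile normalization and leaving out any atg9 array other than culture 2 at 60 days. The plastid median was 0.02 without the 60-day array of culture 1, which had the highest actin ratio of the 4 (3.04), and -1.28 with 11 genes lower without that of culture 2. The part of RNA quality in this difference was not tested. The list was not uniform in culture 1 either: rpoB, for a subunit of the plastid RNA polymerase, had the highest change, 1.71 ± 0.71, from 250.6 and 370.6 to 1555.5 and 737.3, and did not pass (adjusted p = 0.0999).

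The genes of anthocyanin synthesis differed even more between cultures. None of 6 tested flavonoid genes passed, beside 23.0% of all probe sets. DFR, an enzyme of the anthocyanin branch, had signals of 2766.9 and 741.2 at 30 days and 690.7 and 10719.9 at 60 days. UGT75C1 (AT4G14090), which adds glucose to anthocyanins, had 1016.3 and 493.6 and then 331.3 and 7483.1, and UF3GT, another glycosyltransferase of the pathway, 1233.1 and 538.8 and then 273.3 and 4531.7. These 3 genes went down with age in culture 1 and up in culture 2. The median of the 6 genes was -1.43 in culture 1 and 2.71 in culture 2, and the mean change of DFR was 0.92 ± 1.25.

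Of 5 tested abscisic acid, cold and dehydration genes 1 rose (HIS1-3) and 1 fell, beside 14.1% higher and 8.94% lower among all probe sets. No more than 1 gene was called each way, so the genes are given singly. The median of the list was -1.49 in culture 1 and 0.63 in culture 2. COR15A, a protein that protects chloroplast membranes from freezing, read 17549.9 and 9360.5 at 30 days and 1728.2 and 14551.0 at 60 days (-1.34 ± 0.87, adjusted p = 0.28). COR15B, its neighbour in the family, fell in both, from 3021.5 and 2797.7 to 955.0 and 1612.7 (-1.21 ± 0.35, adjusted p = 0.0285). COR15B did not pass in the fit to the 4 atg9 arrays alone, and its change ran from -1.65 to -0.76 over the alternatives. COR47 (-0.46) and LTI30 (0.28) did not pass, and both went down in culture 1 and up in culture 2. The clock gene GI showed the same split, with 625.1 and 400.3 and then 347.8 and 1682.9.

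**Figure D4:**
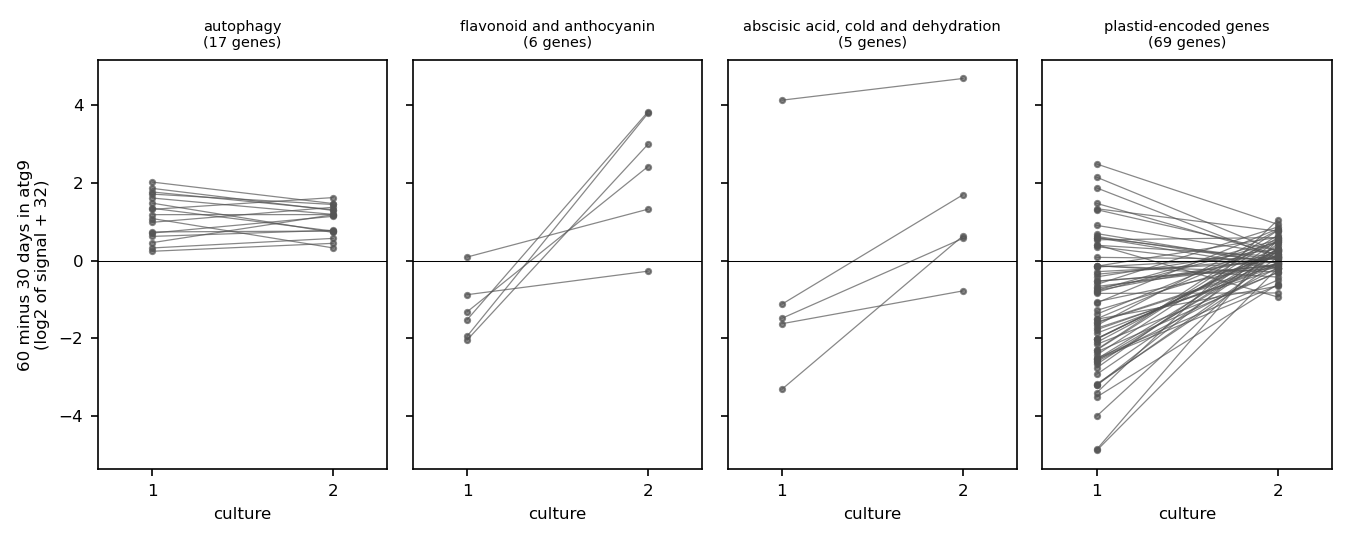
Change from 30 to 60 days in atg9, as a difference of log2(signal + 32), in culture 1 and culture 2, with 1 line per gene of 4 lists. All 17 autophagy genes are above 0 in both cultures, the flavonoid median goes from -1.43 to 2.71 and the plastid-encoded median from -1.29 to 0.10.

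Cell wall genes loosen or build the wall of growing cells. Of 14 tested 2 fell and 1 rose, near the share of all probe sets (8.94% lower and 14.1% higher), with a median of -0.60, so the genes are given singly. XTH16, which cuts and rejoins xyloglucan in expanding walls, went from 842.1 and 830.7 to 164.3 and 130.1 (-2.28 ± 0.29, adjusted p = 0.000666). CSLA03, a glucomannan synthase, went from 639.1 and 514.5 to 142.6 and 70.7 (-2.18 ± 0.28). CSLD2, a cellulose synthase-like gene, rose by 1.1 ± 0.33, but did not pass after quantile normalization or without any 1 of the atg9 arrays. The expansin genes of the list, from EXPB1 (-1.32) to EXLB1 (0.40), did not pass. HTB1, a core histone made in dividing cells, fell from 1013.3 and 1279.8 to 613.2 and 434.4 (-1.09 ± 0.25).

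Of 14 sugar and starch genes 2 rose and 1 fell, no more than the share of all probe sets (14.1% and 8.94%). Without 1 atg9 array none rose, other than 1 gene without culture 2 at 60 days. AMY1, an alpha-amylase secreted under stress and in old leaves, rose by 2.00 ± 0.45, from 74.8 and 67.9 to 603.4 and 237.0. SWEET17, a fructose transporter of the vacuole, fell from 3461.9 and 2545.1 to 486.9 and 1257.0 (-1.88 ± 0.46). SBE2.2, a starch branching enzyme, rose by 0.96 ± 0.30, and the other 11 did not pass. The starch gene APL3 stood at 1.47 ± 0.64, with 0.62 in culture 1 and 2.31 in culture 2.

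Of 21 UDP-glycosyltransferases, which attach sugars to small molecules, 5 rose and 2 fell, beside 14.1% and 8.94% of all probe sets. The 5 were 0 without the 60-day array of culture 1, 1 without the 30-day array of culture 2, and 3 without the 60-day array of culture 2 or after quantile normalization. UGT72E1, which acts on lignin precursors, rose by 2.11 ± 0.53, UGT87A2 by 1.84 ± 0.36, and UGT76E11 fell, at -1.75 ± 0.45. Of 12 cytochromes P450 3 rose, led by CYP71B23 (3.45 ± 0.54, from 140.4 and 57.8 to 1486.9 and 1178.2). This gene passed in every alternative, while the count was 1 without the 30-day array of culture 2 or the 60-day array of culture 1. Of 11 oxidative stress genes 3 rose and 2 fell, but none rose with the 4 atg9 arrays alone or without any 1 of them other than culture 1 at 30 days, when 1 did. Among them NDB2, an alternative NADH dehydrogenase of mitochondria, was at 1.03 ± 0.34, CCS, the copper chaperone of superoxide dismutase, at 0.90 ± 0.20, MSRB5 at -1.14 ± 0.27 and the glutathione transferase GSTU26 at -1.69 ± 0.54.

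Single members of other lists passed as well, beside 23.0% called among all probe sets. BZIP60, a transcription factor of the unfolded protein response and the 1 of 3 endoplasmic reticulum genes that passed, rose by 1.36 ± 0.28, from 853.1 and 695.4 to 2127.7 and 1937.3. WES1, which joins auxin to amino acids, was the 1 of 6 auxin genes that passed and rose by 1.38 ± 0.36. UGT74B1, of glucosinolate synthesis, fell (-1.04 ± 0.30), as did CHLI2, a subunit of magnesium chelatase in chlorophyll synthesis (-0.67 ± 0.21). Neither passed in the fit to the 4 atg9 arrays alone. CHLI2 also did not pass with no filter or in the fit to the 12 low-nitrate arrays. Over the alternatives UGT74B1 ran from -1.13 to -0.96 and CHLI2 from -0.83 to -0.58. The marker of roots, PYK10 (BGLU23), was lower at 60 days (-1.56 ± 0.33, from 1293.9 and 1310.6 to 515.1 and 340.5). Markers of bolting (AGL24, -0.15), guard cells (FAMA, -0.40) and trichomes (TRY, -0.92) did not pass.

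The ageing change in atg9 was set against that in Col-0 to ask which age changes depend on the mutation. The difference of the 2 age changes passed limma's test for none of the 13648 probe sets (0% called), and 673 had an unadjusted p under 0.05, where 682 would be expected. In the comparison with atg5 none passed (0% called) and 414 had an unadjusted p under 0.05. The standard error of such a difference had a median of 0.40, and an absent call is no sign that the genotypes aged alike.

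For the 15 largest falls the median change was -3.29 in atg9, -2.89 in Col-0 and -2.98 in atg5, and for none of them did the 95% interval of the difference from Col-0 exclude 0. AT1G13650, for example, changed by -5.14 ± 0.49 in Col-0 and -5.15 in atg5, beside -5.68 in atg9. THI2.2 changed by -3.28 ± 0.39 in Col-0 and -3.06 in atg5.

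The 15 largest rises were more mixed. Their median was 4.8 in atg9, 4.50 in atg5 and 1.71 in Col-0. These genes were chosen for their size in atg9, which favours a larger value there. PDF1.2 rose by 5.50 ± 0.73 in Col-0, with a difference of -0.02 and a 95% interval from -2.28 to 2.25. AT4G16260 (4.55 ± 0.40) and AT3G23550 (4.11 ± 0.38) also rose in Col-0. Both were dim there at 30 days, with Col-0 signals of 20.3 and 8.3 for AT4G16260 and 41.7 and 9.1 for AT3G23550. AT4G00700 had -0.14 ± 0.73 in Col-0 and 4.58 ± 0.73 in atg5, a difference of 4.69 ± 1.04 from Col-0 that did not pass (adjusted p = 0.258). Its Col-0 signals were 320.3 and 23.4 at 30 days and 99.2 and 90.1 at 60 days, so the Col-0 cultures went opposite ways and the highest value was on the array that stood apart. Without the 2 arrays that stood apart the difference was 3.33 ± 0.91 (adjusted p = 0.835). The unadjusted interval of the difference from Col-0 lay above 0 for 9 of the 15 rises. Over all 13648 probe sets 673 had an unadjusted limma p under 0.05 for this difference, where 682 would be expected.

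From atg5 the unadjusted interval excluded 0 for 5 of the 15 rises and 2 of the 15 falls. The choice of these genes by size in atg9 favours such differences, so the counts are descriptions. Over all 13648 probe sets 414 had an unadjusted limma p under 0.05 for this difference, where 682 would be expected. PDF1.2 rose by 3.00 in atg5, with an interval of the difference from 0.21 to 4.74. HIS1-3 rose by 2.55 there (0.39 to 3.35), and PDF1.2b, AT1G80130 and AT3G23550 were the other 3. EXO changed by -2.22 in atg5 (-2.69 to -0.05) and AT3G19030 by -1.45 (-3.31 to -0.25). Without the 2 arrays that stood apart the intervals excluded 0 for 10 rises and no fall against Col-0, and for 2 rises and 1 fall against atg5.

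**Figure D5:**
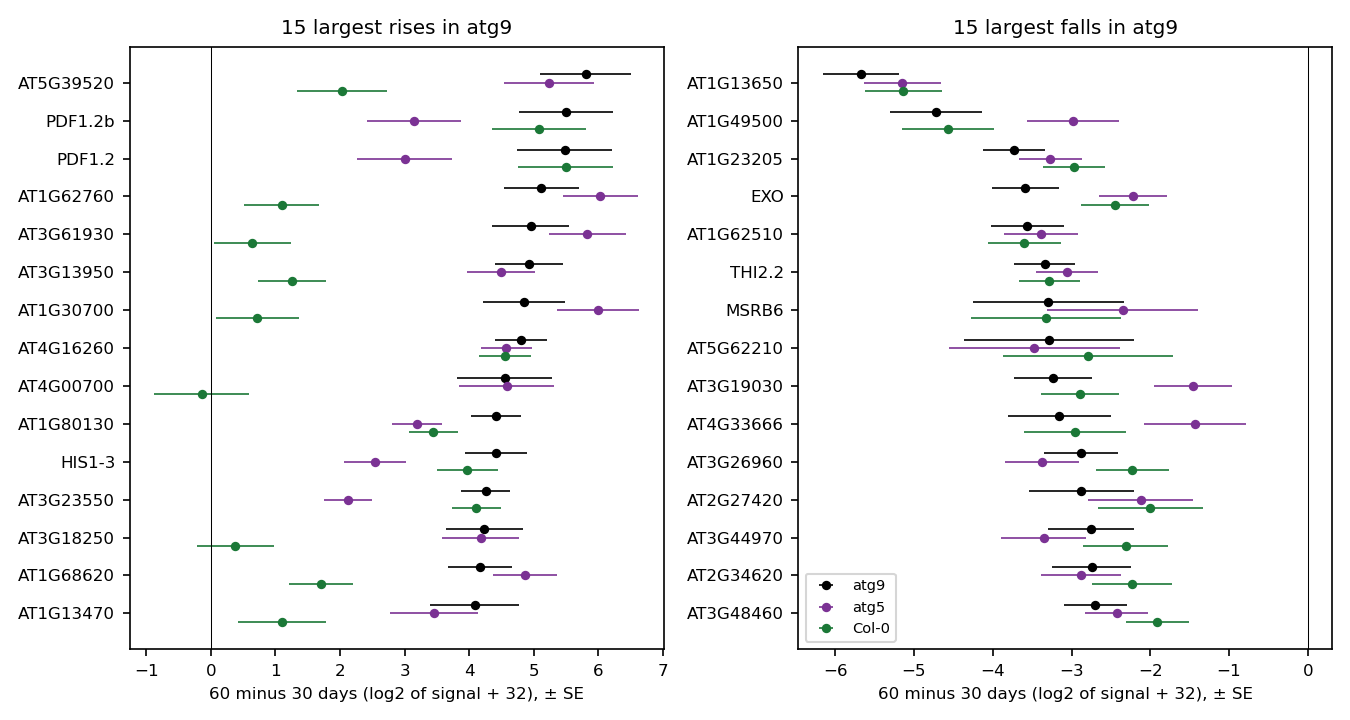
Change from 30 to 60 days, as a difference of log2(signal + 32) with its standard error from the model, in atg9 (black), atg5 (purple) and Col-0 (green), for the 15 named genes with the largest rise and the 15 with the largest fall in atg9. The medians of the falls were close in the 3 genotypes, at -3.29, -2.98 and -2.89, while the Col-0 values of the rises run from -0.14 to 5.50.

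The gene nearest to the threshold against Col-0 was AT3G47540, of the chitinase family. In atg9 it went from 468.9 and 527.8 at 30 days to 1261.0 and 1265.4 at 60 days. In Col-0 it went down by 1.49 in culture 1 and 1.41 in culture 2, on the same log2 scale, and the mean change there was -1.45 ± 0.25. The difference of 2.74 ± 0.35 (95% interval 1.98 to 3.5) had an adjusted p of 0.0681. It passed on the scale with nothing added (adjusted p = 0.0432) and in the fit to the 12 low-nitrate arrays (adjusted p = 0.011).

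The next genes by p were AT5G40690, AT5G38900, AT3G61930 and AT5G62150. AT5G40690 read 78.4 and 56.4 and then 1796.7 and 1466.3 in atg9, a change of 4.07 ± 0.46 against 0.06 ± 0.46 in Col-0 (adjusted p of the difference 0.102). AT5G38900 changed by 3.15 ± 0.49 in atg9 and -0.72 ± 0.49 in Col-0 (adjusted p = 0.166). AT5G62150, with a LysM domain that binds chitin-like sugars, changed by 2.82 ± 0.34 against 0.39 ± 0.34 (adjusted p = 0.219). In atg5 the 3 genes changed by 5.03, 3.65 and 2.92.

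Of the autophagy genes ATG8H had a change of -0.39 ± 0.42 in Col-0 and 3.46 ± 0.42 in atg5, beside 1.75 ± 0.42 in atg9. Its difference from Col-0 was 2.13 ± 0.60 (adjusted p = 0.457). The median over the 17 autophagy genes was 0.39 in Col-0 and 1.37 in atg5, beside 1.1 in atg9.

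Against atg5 the genes with the smallest p had an adjusted p of 1. AT5G17650 was at -0.74 ± 0.25 in atg9 and 0.82 ± 0.25 in atg5, and AT5G48570, of the immunophilin family that responds to heat, at -0.55 ± 0.25 and 0.95 ± 0.25. SBE2.2 was at 0.96 ± 0.30 in atg9 and -0.67 ± 0.30 in atg5, and 1.54 in Col-0. CCS was at 0.90 ± 0.20 and -0.21 ± 0.20. AT3G23550 was at 4.26 ± 0.38 and 2.12 ± 0.38. The atg5 values rest on the 60-day array with the actin ratio of 9.05 in culture 1. Without the 2 arrays that stood apart no difference from Col-0 or atg5 passed either.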

How the data were processed

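The deposited values are MAS5 intensities on a linear scale, per the submitters' processing notes, with the trimmed mean of each array equal; quality flags and probe-level files were not used here. To each deposited intensity 32 was added before log2. Probe sets under the 40th percentile of mean log2 signal over all 16 arrays (a signal of 97.6) were left out. Limma 3.58.1 (R 4.3.3, lmFit and eBayes with trend) fitted the means of 8 groups and the culture to all 16 arrays, leaving 7 residual degrees of freedom. P-values were Benjamini-Hochberg adjusted over 13648 probe sets and called under 0.05. The step was tested on simulated data. The culture number pairs arrays because the labels name 2 separate cultures, although deviations from group means correlated at r = -0.07 between the atg9 ages and between -0.17 and 0.71 over 28 pairs of groups. With 2 arrays an age the number of arrays limits the precision, and p-values measure the spread between pools.

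Named genes were the 15 largest rises and 15 largest falls among called probe sets with 1 gene, up to 4 members of each list by smallest p, and 5 genes per difference between genotypes; other members are given with their lists. Members and lists were chosen with earlier results of these data known. Of the 36 lists, those of proteasome, cytosolic ribosomal protein, receptor kinase, phosphate, seed and pollen genes had no tested member, and the flowering, heat shock and NAC lists had no call. Gene names come from the platform annotation and RefSeq. The 12 low-nitrate arrays, quantile normalization, other filters and offsets and single arrays left out were alternatives. Promoter motifs were not analysed here.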

Additional observations from a re-analysis of the deposited data

How the results depend on the processing

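No called probe set changed sign under any of the 15 alternatives to the atg9 age comparison, and of 76 named genes that passed 37 passed in each of the alternatives run for them. The age comparison gave 536 to 1096 higher and 333 to 678 lower probe sets without 1 of the 4 atg9 arrays. Without culture 1 the counts were 1057 and 626 (30 days) or 536 and 362 (60 days), and without culture 2 they were 612 and 333 (30 days) or 1096 and 678 (60 days). The fit to the 4 atg9 arrays alone, with the culture block, gave 1290 higher and 649 lower, with 1788 of the 3139 calls. Without the replicate block for culture 1779 were higher and 1106 lower, and 2846 of the 3139 calls passed. The block is 1 culture term shared by the 8 groups, so this run does not test the pairing within atg9. The genes psbK, psbI, UGT74B1, CCS, AT4G01700 and AT5G62210 did not pass without the block. After quantile normalization 2292 of the 3139 passed. Without the 2 arrays that stood apart 2542 were higher and 1606 lower, with 3104 of the 3139.

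The difference from Col-0 was higher for 1 probe set with nothing added, 1 with a filter at the 60th percentile and 25 in the fit to the 12 low-nitrate arrays. Without 1 array it ranged from 0 to 237 higher and 0 to 56 lower. The upper ends were reached without the Col-0 array of culture 2 at 30 days, which leaves its group with the array that stood apart. No difference from atg5 passed in any alternative run. Signals near the lower quartile set no size of change, and the motif search was not run.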

Other observations

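Several gene families not listed above were grouped by the stem of their symbols after values had been seen, so their counts are descriptions without a test. Of 30 stems with at least 5 tested genes, RALFL, for secreted peptides of the rapid alkalinization factor family that signal at the cell surface, had 5 of 6 members lower at 60 days, beside 8.94% of all probe sets. RALFL34 went from 5233.0 and 5225.7 at 30 days to 2019.7 and 2581.8 at 60 days (-1.18 ± 0.31) and RALFL33 from 4101.7 and 2255.6 to 1489.3 and 1438.7 (-1.04 ± 0.28). RALFL22, RALFL24 and RALFL32 changed by -1.11, -1.07 and -1.26, and RALFL31 by -0.05, which did not pass.

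Single genes of wall and cytoskeleton stems were also among the falls, beside 8.94% lower and 14.1% higher among all probe sets. The cell wall list above was near that share, so these genes are given singly. TUB7, a beta-tubulin, went from 1477.8 and 1443.9 to 462.2 and 454.5 (-1.61 ± 0.22), and TUB9 passed too (-0.76 ± 0.23), while the other 3 of 5 tubulin genes did not. Of 14 TBL genes, which include enzymes that acetylate wall polymers, TBL25 (-1.60), TBL28 (-1.56) and TBL41 (-1.16) fell, and TBL26 had the lowest value (-1.69) and did not pass. The endoglucanase genes GH9B13 (-2.51 ± 0.51) and GH9B7 (-1.66 ± 0.43) fell, and GH9C2 (-1.09) and GH9B8 (-1.01) did not pass. Of 8 beta-glucosidase genes BGLU46 rose by 2.59 ± 0.50, from 11.7 and 17.4 to 188.8 and 324.6, whereas BGLU47 (-2.61 ± 0.48), BGLU40 (-1.19) and BGLU33 (-0.99) fell.

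In 76 probe sets the cultures moved by more than 1 on the log2 scale in opposite directions, 70 of them up in culture 2. Of these 35 carried 1 gene name. CML38, a calmodulin-like calcium sensor, read 1619.5 and 36.9 at 30 days and 173.4 and 485.4 at 60 days. STZ, a zinc finger factor of stress responses, read 4606.4 and 133.4 and then 918.3 and 1093.2. For both genes the 30-day array of culture 1 had the highest signal of the 4. HYH, a factor of light signalling, went the other way, with 172.8 and 566.2 and then 1159.3 and 203.7.

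The largest change of any probe set was that of 248918_at, which is unnamed here, at 13.8 and 1.7 and then 13677.8 and 13931.9 (8.46 ± 1.3, adjusted p = 0.00165), with 4.59 in Col-0 and 6.98 in atg5. Another unnamed probe set, 257540_at, read 21.8 and 6 and then 4721 and 3167.8. It rose by 6.43 ± 0.68, with 0.42 in Col-0 and 6.70 in atg5. The 30-day signals of 248918_at and 257540_at were below the lower quartile of their arrays. The sizes of their rises are thus set by the constant added before the logarithm, and the ranking by size is given for this scale only. Among the falls 262113_at changed by -4.48 ± 0.73 and 247925_at by -3.63 ± 0.69.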
